A study of Mus musculus with 6 samples.

Results

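Long noncoding RNA probes of the array were taken as all non-control probes whose name begins with A_30_P, which is the noncoding RNA set of this mouse expression array. The rule found 16251 such probes among 55681 probes in all. It used the probe names and no measured value. Of the 16251 probes, 16181 are placed by the array's annotation on 1 strand of a stretch of the mouse genome (mm9, NCBI37), 13 on a stretch with no strand, and 57 carry the name of a transcript, such as H19 or NEAT1. They fall under 4622 region names, with a median of 3 probes (1 to 10) for each, and the stretches have a median length of 7304 bases.

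The samples were epidermis of mouse embryos at embryonic day 16, separated from the dermis with dispase. Each of 6 two-colour arrays compared RNA of a knockout with RNA of a wild-type littermate, with 2 arrays each for Sox4cKO (Sox4 fl/fl with Krt14-Cre), Sox11cKO (Sox11 fl/fl with Krt14-Cre) and dcKO (Sox4/11 dcKO, floxed for both genes, with Krt14-Cre). Krt14-Cre is active in keratinocytes, so other cells in the tissue keep Sox4 and Sox11. The strain is given as 129SvEx:C57BL/6, and the floxed stock was bred to a Krt14-Cre line on FVB/N after an original cross that also carried Sox12-/-, whose status in these embryos is not given in the sources used here. Replicate 1 of each genotype had the knockout RNA in Cy5 and replicate 2 in Cy3, so replicate number and dye orientation are the same thing here. The sources used here do not say whether the wild-type RNA of one array was used on another.

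A long noncoding RNA is a transcript longer than a small RNA that codes for no known protein. Some act in the nucleus on the chromatin or on nuclear bodies, some host small RNAs, and for many no function is known. H19 is an imprinted transcript that is abundant in fetal tissues and is the precursor of the microRNA miR-675. NEAT1 builds the nuclear paraspeckles, NEAT2 is another name of MALAT1, a transcript of nuclear speckles, and XIST coats the inactive X chromosome of female cells. SOX4 and SOX11 are closely related transcription factors of the SoxC group.

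The microRNA that H19 hosts is shown because H19 is the only transcript known by name among the probes that passed the test below. Its hairpin lies inside H19 at chr7:142577064-142577147 on the minus strand (RefSeq, GRCm38.p6, which is another build than the array's), and the capitals in the hairpin mark both mature arms. In the mature arms the capitals mark the seed, bases 2 to 8.
Mir675 hairpin: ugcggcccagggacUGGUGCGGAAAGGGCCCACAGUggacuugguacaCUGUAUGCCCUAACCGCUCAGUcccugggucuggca
mmu-miR-675-5p: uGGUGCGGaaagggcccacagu
mmu-miR-675-3p: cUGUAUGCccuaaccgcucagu
The H19 probes measure the long transcript, and the microRNA itself was not analysed here.

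Most of these probes gave little signal in E16 epidermis. Between 17.4% and 22.5% of them were well above background in a channel, the scanner software's flag for a spot brighter than its surroundings, against 46.1% to 50.5% of all other probes. In every one of the 12 channels the noncoding share was the lower one. Only 1954 noncoding probes (12%) were well above background in all 12 channels, and 11333 (69.7%) in none, against 41% and 43.8% of the other probes. The 4061 probes (25%) that were well above background in at least 1 channel on at least 2 arrays are called detected below. Detected noncoding probes had a median intensity of 5.75 on the log2 scale, beside 7.37 for detected other probes. Of 1067 stretches with probes on both strands, 299 had a detected probe on both, 478 on 1 strand only and 290 on neither.

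**Figure D1:**
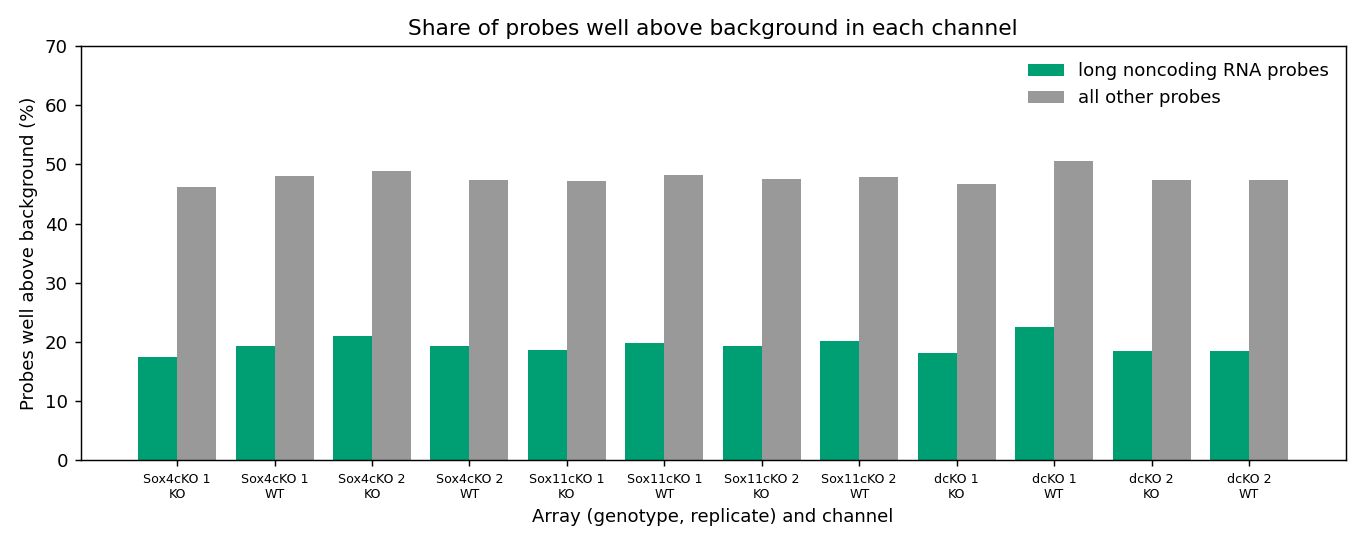
Percent of probes well above background (y axis) in the knockout (KO) and wild-type (WT) channel of each array (x axis), for the 16251 long noncoding RNA probes and for all other probes. The noncoding bars lie between 17.4% and 22.5% and the others between 46.1% and 50.5%.

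The targeted genes serve as a check of the labels. Each p in the text is from limma, adjusted by Benjamini-Hochberg over all 55681 probes unless it is said to be unadjusted, and a probe passed where it was under 0.05. The Sox4 probe A_55_P2131899 gave log2 ratios of -1.66 and -2.26 in Sox4cKO and -1.55 and -1.61 in dcKO, and 0.07 and 0.09 in Sox11cKO. Knockout signal was not well above background on either array of both genotypes, so wild type was at least 3.05-fold higher in Sox4cKO (limma adjusted p = 0.0284) and at least 3-fold higher in dcKO (limma adjusted p = 0.00223). In these bounds the dim channel is set at the lowest level that was well above background on its array, or at the probe's own level where that was higher. Each bound is for the mean of both arrays, so a single array can lie below it. The other Sox4 probe had log2 fold changes of -0.42 and -0.82 in the same knockouts and did not pass (limma adjusted p = 0.802 and 0.0768). The Sox11 probes, A_52_P160955 and A_55_P2094721, were well above background in 0 and 4 of 12 channels, so the loss of Sox11 could not be checked on the arrays. The paper reports that RT-qPCR on these RNAs, run before the arrays, was used to verify that each deleted gene was lost. Where each probe lies relative to the deleted part is not given in the sources used here.

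Of the keratinocyte markers Krt5, Krt14, Krt1, Krt10, Trp63, Dsp and Perp, all 7 were detected and none passed, with median log2 fold changes of 0.05 in Sox4cKO, 0.26 in Sox11cKO and 0.10 in dcKO. Dermal fibroblast markers varied most between arrays. Their median log2 ratios were -3.50 and 0.87 on the Sox4cKO arrays, 1.11 and -0.68 on the Sox11cKO arrays and -1.84 and -1.85 on the dcKO arrays, and 5 of 6 (all but Dcn) were lower in both Sox4cKO and dcKO, with 0 of 6 past the test. Medians of the other lists in dcKO were -0.35 for muscle, 0.17 for blood vessels, 0.04 for immune cells, 0.48 for red blood cells and -0.10 for melanocytes, with none past the test. These are bulk samples, so fewer cells of a type and less RNA in each cell cannot be told apart.

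Of the brightest noncoding probes, 1 passed the test in dcKO and the rest did not pass in any knockout. The 10 brightest had mean log2 intensities of 13.65 to 15.51, all well above background in 12 of 12 channels. The brightest, A_30_P01031754 (chr19:5801802-5802597, reverse strand), had log2 ratios of knockout over wild type of 0.28 and -0.26 in Sox4cKO, 0.41 and 0.01 in Sox11cKO, and 0.52 and -0.38 in dcKO. Its sign turned with the dye on the Sox4cKO and dcKO arrays. Next came A_30_P01026458 (chr11:22681800-22707775, reverse strand), whose 6 log2 ratios lay between -0.15 and 0.01. The one that passed was the H19 probe A_30_P01021588, described below. The other 9 of the 10 had adjusted p-values in dcKO of 0.612 to 0.985.

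The design asks how the RNA of the epidermis differs from wild type without Sox4, without Sox11 and without the pair. A probe was called where the adjusted p was under 0.05 and the log2 fold change beyond 1.5 in either direction, the limits in the study's methods. The legend of its heat map of these arrays gives a fold change over 1.5 without log2, which is a looser limit. In Sox4cKO 0 of the 16251 noncoding probes were called (0.00539% of all probes were called), and in Sox11cKO again 0 (0% of all probes). Before adjustment, limma put 1024 (6.3%) noncoding probes under 0.05 in Sox4cKO and 1122 (6.9%) in Sox11cKO, beside 6.12% and 7.1% of the other probes. In dcKO 5 noncoding probes were called, all higher in the knockout (0.172% of all probes were called higher). By adjusted p alone 36 passed in dcKO, 0.222% of the noncoding probes, where 0.833% of all probes passed. Of these, 29 were higher (0.524% of all probes) and 7 lower (0.309% of all probes). Among detected probes the shares that passed were 0.862% of noncoding and 2.06% of other probes. These counts rest on 2 arrays a group. Without dcKO replicate 1, 8 noncoding probes passed in dcKO, and without dcKO replicate 2, 19 did, of which 4 and 13 were among the 36. Without the dye coefficient, which is also the replicate block, 3 noncoding probes were called in dcKO and 19 passed by adjusted p. Other choices raised the count. After ComBat on the dye orientation, a step named in the study's methods, 391 were higher and 331 lower by adjusted p, a higher share of 54.2%. That fit did not count the dye among its terms. With an offset of 50 in the background correction, 66 were higher and 34 lower. With arrays centred on their median in place of loess, 26 were higher and 16 lower, which makes the higher share 61.9% in place of 80.6%. From the scanner software's own log ratios no probe of any kind passed in dcKO, while 1118 noncoding probes had an unadjusted p under 0.05.

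Agreement between the 2 arrays of a genotype was weak for these probes. Of the 4061 detected noncoding probes in dcKO, 1083 had log2 ratios above 0 on both arrays, 1053 below 0 on both and 1925 opposite signs. In Sox4cKO 2166 had opposite signs and in Sox11cKO 2246. Log2 ratios over 1 on both arrays were found for 8 detected probes in dcKO and for 0 in either single knockout, and under -1 on both for 1 in dcKO, 2 in Sox4cKO and 0 in Sox11cKO. Both of those in Sox4cKO were in the region chr6:35201798-35217831, described with the single knockouts below. Across probes, the Pearson r of the 2 arrays was 0.19 in dcKO, -0.10 in Sox4cKO and -0.14 in Sox11cKO, beside 0.53, -0.06 and -0.03 for detected other probes. Probes are not independent replicates, and the 2 arrays of a genotype have opposite dyes.

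**Figure D2:**
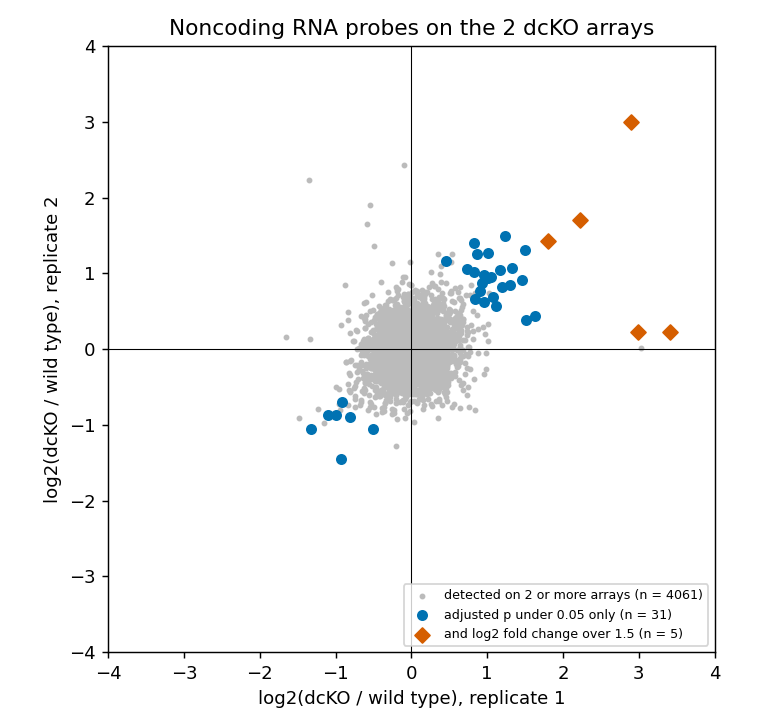
Log2 ratio of dcKO over wild type on replicate 1 (x axis) and replicate 2 (y axis) for the 4061 detected noncoding probes (grey), with the 36 probes past adjusted p 0.05 in colour. The 5 called probes are diamonds, and 2 of them lie far out on replicate 1 alone.

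The largest change of a noncoding probe in dcKO was a rise at chr3:85806420-85889300 on the reverse strand. Its probe A_30_P01031718 had log2 ratios of 2.90 and 2.99 on the dcKO arrays, which is 2.95 ± 0.07 (SD, n = 2) or 7.70-fold (limma adjusted p = 4.32e-05). On the other arrays the same probe gave -0.37 and -0.71 in Sox4cKO and -0.01 and -0.34 in Sox11cKO, so the dcKO arrays stood clear of the rest. Channel levels of this probe, on the log2 scale, were 11.38 in dcKO and 8.48 in wild type on replicate 1, and 10.09 and 7.09 on replicate 2. Its level also differed widely between arrays, since knockout and wild type lay at 9.77 and 10.14 on Sox4cKO replicate 1 and at 5.63 and 5.96 on Sox11cKO replicate 2. The other 4 probes of the region were well above background in 0 of 12 channels, so no second probe measured this transcript.

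The second was a rise at chr1:137503023-137625604, reverse strand. Its probe A_30_P01023847 had log2 ratios of 2.22 and 1.70 in dcKO, 1.96 ± 0.37 (SD, n = 2; limma adjusted p = 0.00118), against -0.19 to 0.31 on the other 4 arrays. Here too the other 2 probes of the region were well above background in no channel. Both this probe and the one on chromosome 3 were higher in dcKO than in either single knockout when the differences were tested, as given below.

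At chr15:92197603-92208534, forward strand, all 3 probes lay higher on both dcKO arrays and 2 passed. A_30_P01018460 had log2 ratios of 1.81 and 1.42 (limma adjusted p = 0.012) and A_30_P01031118 of 1.49 and 1.31 (limma adjusted p = 0.00376). The remaining one, A_30_P01018976, gave 0.71 and 0.72 (limma adjusted p = 0.074). On the Sox4cKO and Sox11cKO arrays the 2 probes that passed ranged from -0.46 to 0.32, with no overlap with dcKO, for which they were picked. In tests of the difference from Sox4cKO, A_30_P01031118 passed and A_30_P01018460 did not (limma adjusted p = 0.0405 and 0.14). Against Sox11cKO neither passed (limma adjusted p = 0.091 and 0.113). Wild-type signal of these 2 probes was well above background on 1 of the 2 dcKO arrays.

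The remaining called probes, A_30_P01019583 and A_30_P01026028, share 1 region, chr5:23195569-23218551 on the reverse strand, and rested on 1 array. Their log2 ratios were 3.41 and 2.99 on dcKO replicate 1, and 0.22 and 0.23 on dcKO replicate 2. A further probe there, A_30_P01020907, gave 3.04 and 0.01 (limma adjusted p = 0.078). The levels in each channel show which sample was apart. For A_30_P01019583 the wild-type channel of dcKO replicate 1 was at 6.87 (log2), while the other 11 channels, knockout and wild type of all genotypes, lay between 10.04 and 11.50. A_30_P01026028 had 5.94 in that wild-type channel and 8.81 to 10.23 in the other 11. A_30_P01020907 had 5.30 there and 8.03 to 9.15 elsewhere. So it was 1 wild-type sample that was low, and the dcKO sample on the same array had a level within the range of the others. The same 3 probes gave -0.98 to -1.12 on Sox11cKO replicate 2. Without dcKO replicate 1, A_30_P01019583 had a log2 fold change of 0.78 and A_30_P01026028 of 0.74 in the fit, and neither passed. The 3 other detected reverse-strand probes of the region had log2 fold changes of -0.16 to 0.10.

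Just inside the fold limit were A_30_P01026028, A_30_P01018460 and A_30_P01019583, with log2 fold changes of 1.61, 1.61 and 1.81. Just outside it, among those past adjusted p 0.05, were A_30_P01031118 with 1.40, A_30_P01030782 with 1.36 and A_30_P01020131 with 1.20.

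**Figure D3:**
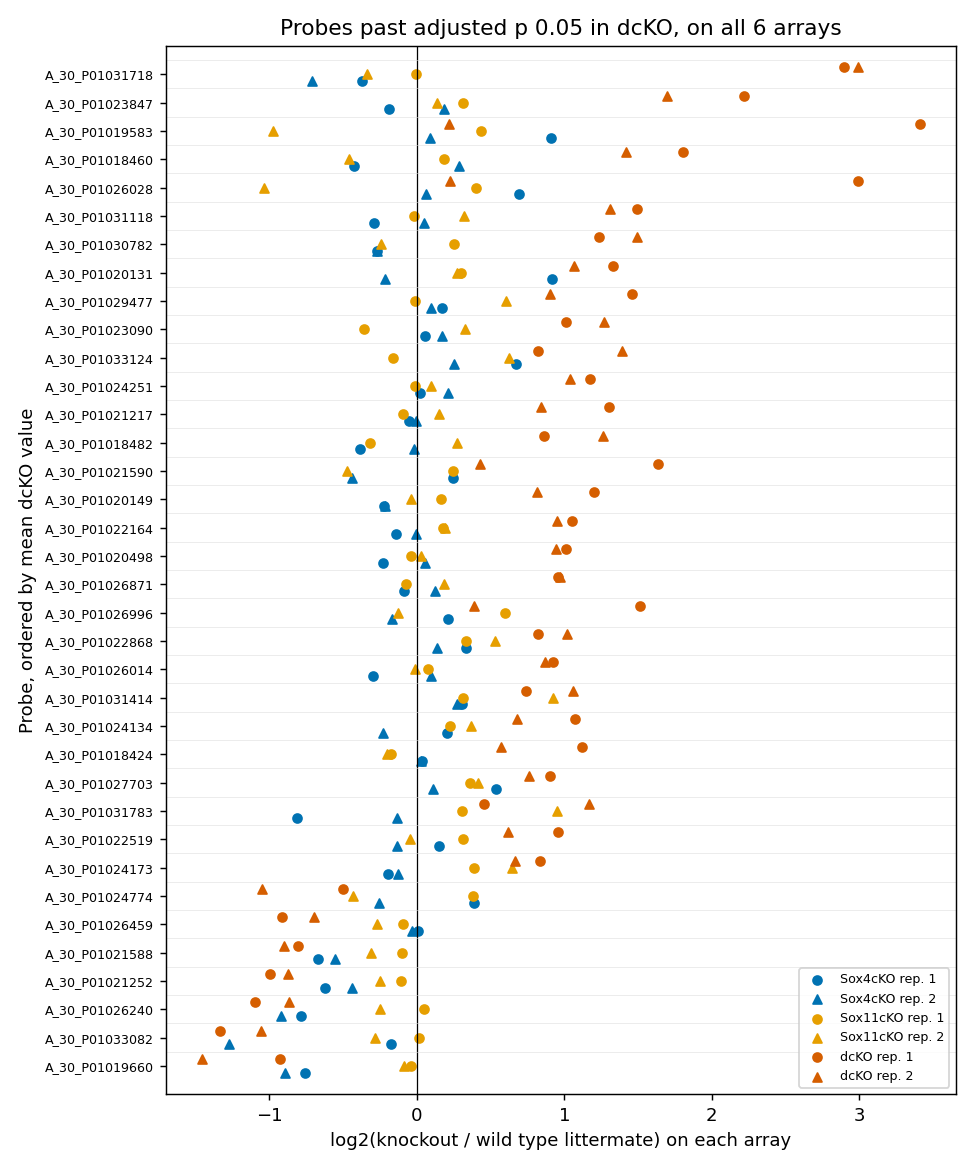
Log2 ratio of knockout over wild type (x axis) on each of the 6 arrays for the 36 noncoding probes past adjusted p 0.05 in dcKO, ordered by their mean in dcKO; circles are replicate 1 and triangles replicate 2. The probes A_30_P01019583 and A_30_P01026028 are at 3.41 and 2.99 on dcKO replicate 1 and at 0.22 and 0.23 on replicate 2, whereas the probe A_30_P01031718 is at 2.90 and 2.99.

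The 36 passing probes came from 26 regions, 21 with probes higher in dcKO and 5 with probes lower, and 8 regions held 2 or more of them (18 probes). Of the 83 detected probes on the strand of a passing probe in these regions, 76 had its sign, a count that includes the passing probes themselves. On the opposite strand 14 of the regions also had probes, 62 in all, of which 4 were detected and 0 passed. Over all detected noncoding probes, 3943 pairs on 1 region and strand had a Pearson r of 0.55 between their dcKO log2 fold changes, and 1841 pairs on opposite strands of a stretch had 0.10. These pairs share their arrays, and probes of 1 transcript are not separate replicates.

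At chr8:27912000-27992750, forward strand, all 5 probes were higher on both arrays and 3 passed. Their log2 ratios were 1.06 and 0.95 for A_30_P01022164, 0.96 and 0.97 for A_30_P01026871, and 0.93 and 0.87 for A_30_P01026014 (limma adjusted p = 0.0102, 0.0124 and 0.026). The same 3 probes lay between -0.29 and 0.19 on the 4 single-knockout arrays. Between the dcKO replicates their SDs were 0.01 to 0.07. The dcKO values lay above every single-knockout value, but these probes were picked for passing in dcKO. Tests of the difference did not pass against Sox4cKO (limma adjusted p = 0.109, 0.198 and 0.227) or against Sox11cKO (limma adjusted p = 0.294, 0.204 and 0.328).

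At chr12:5303823-5379098, reverse strand, 4 detected probes had log2 fold changes of 0.63 to 1.36. A_30_P01030782 gave 1.24 and 1.49 (limma adjusted p = 0.00641) and A_30_P01018482 gave 0.86 and 1.26 (limma adjusted p = 0.00806), and the other 2 did not pass. Wild-type levels differed between arrays by more than this rise, from 5.65 to 8.56 (log2) for A_30_P01030782 and from 5.17 to 8.12 for A_30_P01018482. The 5 forward-strand probes of the stretch were not detected.

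On chromosome 14, 3 regions held 6 passing probes. At chr14:26834450-26847000, forward strand, A_30_P01024251 gave 1.17 and 1.04 in dcKO and A_30_P01018424 gave 1.12 and 0.57, while the only other detected probe of that strand gave 0.02 and 0.20. At chr14:26973425-26986650, also forward, A_30_P01023090 gave 1.01 and 1.27 and A_30_P01021217 gave 1.31 and 0.84. All 4 of these passing probes lay between -0.36 and 0.33 in the single knockouts. At chr14:73729977-73751877, reverse strand, 7 of 8 probes were detected and all 7 were higher on both dcKO arrays, from 0.31 to 0.81 in log2 fold change, with 2 past the test. These 7 were also higher on both Sox11cKO arrays (0.22 to 0.63, none past the test) and lower on both Sox4cKO arrays (-0.47 to -0.10, none past the test). None of its 8 forward-strand probes was detected.

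A second group of neighbours lay on chromosome 3. The regions chr3:146515333-146557069, chr3:146629425-146649125 and chr3:146645022-146646977, all forward strand, held 10 probes. All 10 were detected and higher in dcKO, with log2 fold changes of 0.34 to 1.11, and 1 in each region passed. The last 2 of these stretches overlap, so their probes are not separate measurements of 2 RNAs. In the second region the probe that passed, A_30_P01033124, gave 0.82 and 1.39 in dcKO, 0.67 and 0.25 in Sox4cKO, and -0.16 and 0.62 in Sox11cKO. The 5 reverse-strand probes of the second region were not detected. In the first and last regions the probes that passed, A_30_P01022868 and A_30_P01031414, were above wild type on every single-knockout array. They gave 0.13 to 0.53 and 0.27 to 0.92 there. For A_30_P01031414 the 0.92 on Sox11cKO replicate 2 was above the 0.74 on dcKO replicate 1.

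**Figure D4:**
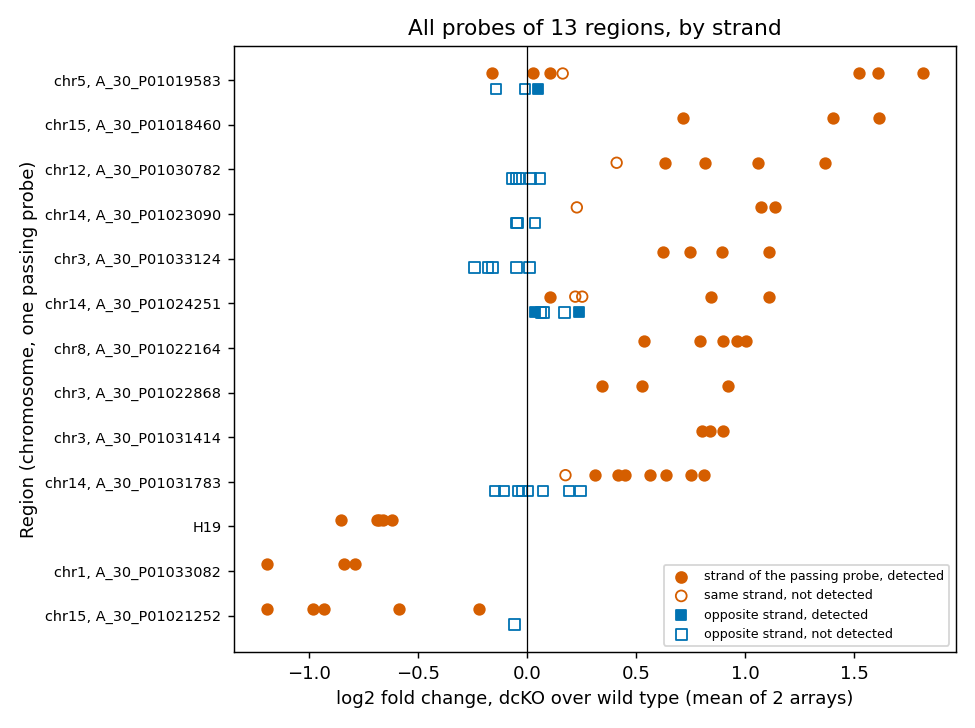
Log2 fold change in dcKO (x axis, mean of 2 arrays) of every probe in 13 regions that held a passing probe (y axis). They were chosen for 2 or more passing probes, or for 3 or more detected probes that all had the same sign, none of them small. The regions of A_30_P01024134 and A_30_P01020131 also had 1 sign throughout but were left out, because their lowest log2 fold changes were 0.0153 and 0.0608. Circles are the strand of the passing probe and squares the opposite strand, and filled marks are detected probes; at the chr8 region all 5 filled circles lie between 0.54 and 1.00, and at the chr14 region of A_30_P01031783 the 8 squares are all open and lie between -0.15 and 0.25.

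In other regions 1 probe passed alone. At chr17:56687541-56694631, reverse strand, A_30_P01020131 gave 1.33 and 1.07, while the other 3 detected probes had log2 fold changes of 0.06 to 0.12. At chr2:60038543-60046318, reverse strand, A_30_P01024134 gave 1.08 and 0.68, and the other 6 detected probes 0.02 to 0.23. At chr12:83271350-83357214, forward strand, A_30_P01026459 was lower, at -0.91 and -0.70, and another detected probe had a log2 fold change of 0.41. At chr17:3206316-3208050, forward strand, A_30_P01026996 gave 1.51 and 0.39 and the other 2 probes -0.20 and -0.02. In these regions the probes did not measure the same change. A_30_P01029477 (chr6:126766225-126771309, forward) gave 1.46 and 0.91, and no other probe of its strand was detected. A_30_P01020498 (chr12:21584725-21595050, reverse) gave 1.01 and 0.94, and the other probe of its strand 0.64 and 0.68. A_30_P01020149 (chr2:77807600-77836075, forward) gave 1.20 and 0.81, and the other detected probe of its strand -0.25 and 0.21.

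For 3 passing probes 1 side was not well above background on either dcKO array. A_30_P01021590 (chr15:79276925-79286500, reverse) was 2.05-fold higher in dcKO on the mean of both arrays (limma adjusted p = 0.0149), with log2 ratios of 1.64 and 0.43. Here the bound is the measured mean, and replicate 2 lay below it. A_30_P01022519 (chr3:40929393-40929706, forward) was at least 1.7-fold higher in dcKO on the mean of both arrays (limma adjusted p = 0.0293), with log2 ratios of 0.96 and 0.62, the latter below that bound. A_30_P01024774 (chr6:149307300-149322900, reverse) was at least 1.21-fold higher in wild type (limma adjusted p = 0.0352), where it was well above background on 1 array only. That was its only such channel among all 12. The 1 detected probe of its strand had a log2 fold change of 0.003 in dcKO and did not share the change.

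Probes lower in dcKO were fewer. At chr15:77164450-77201325, forward strand, all 5 probes were detected and lower on both dcKO arrays, and 3 passed. A_30_P01019660 gave -0.93 and -1.46, A_30_P01026240 gave -1.10 and -0.87, and A_30_P01021252 gave -0.99 and -0.87 (limma adjusted p = 0.00704, 0.0174 and 0.0165). In Sox4cKO the same 3 probes gave -0.76 and -0.89, -0.78 and -0.92, and -0.62 and -0.44, which did not pass (limma adjusted p = 0.346, 0.346 and 0.762). In Sox11cKO they lay between -0.25 and 0.05, above every Sox4cKO and dcKO value, but these probes were picked for passing in dcKO. The remaining probes of the region overlapped between genotypes. A_30_P01025414 gave -0.04 and -0.51 in Sox4cKO and -0.26 and 0.12 in Sox11cKO. A_30_P01032050 gave -0.05 and -0.39 in dcKO and 0.18 and -0.32 in Sox11cKO. The difference between dcKO and Sox11cKO did not pass for any of the 3 (limma adjusted p = 0.12, 0.319 and 0.411). Knockout signal of A_30_P01019660 was well above background on 1 of the 2 dcKO arrays.

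At chr1:139822286-139822985, forward strand, all 3 probes were lower on both dcKO arrays. A_30_P01033082 gave -1.33 and -1.05 and passed (limma adjusted p = 0.043), and the other 2 had log2 fold changes of -0.79 and -0.84. In Sox4cKO A_30_P01033082 gave -0.18 and -1.27, so the 2 arrays of that genotype were far apart and 1 of them overlapped dcKO.

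H19 lay below wild type on every array of dcKO and Sox4cKO. Its 5 probes, all well above background in 12 of 12 channels, had log2 ratios of -0.54 to -0.81 on dcKO replicate 1 and -0.55 to -0.90 on replicate 2. A_30_P01021588 gave -0.80 and -0.90, -0.85 ± 0.07 (SD, n = 2), and passed (limma adjusted p = 0.0243). The other 4 had adjusted p-values of 0.0624 to 0.15 in limma. On the Sox4cKO arrays the 5 probes gave -0.62 to -0.77 and -0.36 to -0.61 (limma adjusted p = 0.70 to 0.785), and on the Sox11cKO arrays -0.31 to 0.10 and -0.46 to -0.24. A sixth H19 probe outside the noncoding set, A_55_P1961127, gave -0.81 and -0.85 in dcKO (limma adjusted p = 0.053). Dermal fibroblast markers were also lower on both dcKO arrays, with medians of -1.84 and -1.85. Their summed level was 12.91 to 13.16 (log2) in dcKO and 13.04 to 13.58 in wild type. Dcn counts most in this sum, as the brightest of the 6 (mean log2 intensity 12.61, next Col1a2 with 10.20). Its log2 fold change in dcKO was 0.35, whereas the other 5 were lower. The medians of these markers were -3.50 on Sox4cKO replicate 1 and -0.68 on Sox11cKO replicate 2, where H19 also lay below wild type, 1.11 on Sox11cKO replicate 1, where H19 was at -0.31 to 0.10, and 0.87 on Sox4cKO replicate 2, where H19 was at -0.36 to -0.61. The part of dermal cells in the H19 difference was not tested.

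NEAT1, NEAT2 and TUG1 were measured in every sample and did not pass in any knockout. The 5 NEAT1 probes, at mean log2 intensities of 12.06 to 12.63, had log2 fold changes of 0.24 to 0.46 in dcKO (limma adjusted p = 0.299 to 0.659), with 0.17 to 0.38 on replicate 1 and 0.27 to 0.55 on replicate 2. On Sox11cKO replicate 2 they reached 0.73 to 1.02, whereas on replicate 1 they were at -0.09 to 0.07. So the Sox11cKO arrays differed from each other by more than dcKO differed from wild type. The 3 NEAT2 probes had 0.07 to 0.14 in dcKO and the 5 TUG1 probes -0.02 to 0.10. TUG1, a transcript known from work on the developing retina, had log2 ratios of -0.41 to 0.30 over all 6 arrays.

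**Figure D5:**
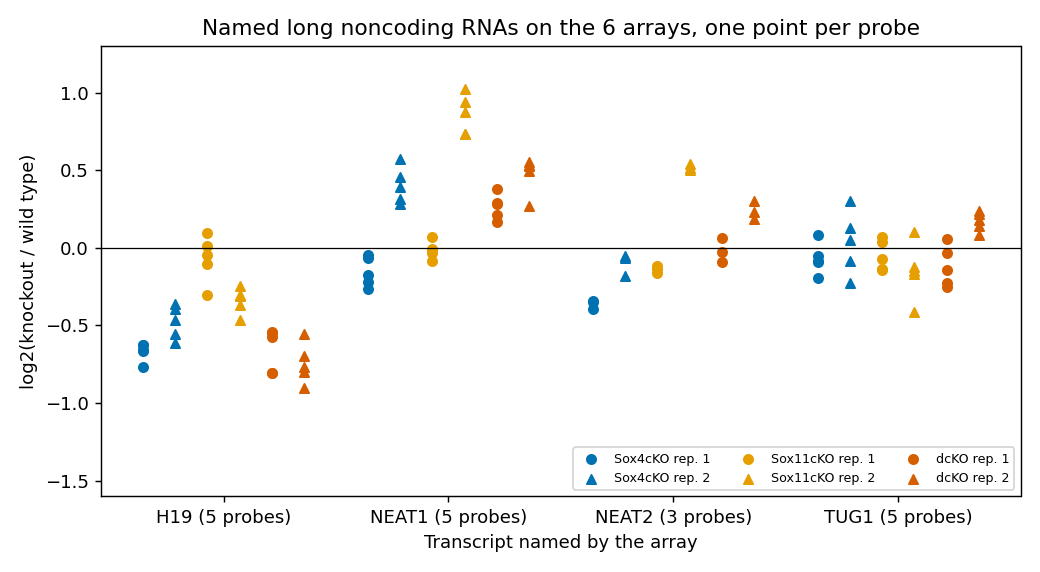
Log2 ratio of knockout over wild type (y axis) of every probe of 4 transcripts named by the array (x axis), on the 6 arrays; circles are replicate 1 and triangles replicate 2. All H19 points of Sox4cKO and dcKO lie below 0, and NEAT1 is highest on Sox11cKO replicate 2, at 0.73 to 1.02.

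XIST was bright on 2 arrays only. Its 5 probes were well above background in both channels of Sox4cKO replicate 2 and of Sox11cKO replicate 2, at log2 levels of 10.3 to 11.8 and 10.6 to 12.1, and in neither channel of the other 4 arrays, where levels were 4.2 to 5.0. Knockout and wild type of 1 array were therefore alike in this respect, and the log2 fold changes of the 5 probes were -0.21 to 0.16 in Sox4cKO and -0.11 to 0.06 in Sox11cKO. In the single knockouts the 2 replicates differed in XIST level and in dye orientation at once. For other probes, a difference between those replicates therefore cannot be assigned to either one. For XIST itself, dcKO replicate 2 had the same dye orientation as the 2 bright arrays and was low in both channels.

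Other transcripts named by the array gave little signal. Of 5 probes each, 1 was detected for KCNQ1ot1, the antisense transcript of an imprinted domain, and 1 for NRON, a repressor of NFAT. None was detected for HOTAIR, TSIX, lincP21, PINC or BRN1-A. The region chr17:12941161-12944859 had 5 detected probes, with log2 fold changes in dcKO of -0.41 to -0.17 (limma adjusted p = 0.405 to 0.757). The 8 probes of the other unstranded regions, on chromosomes 3 and 6, were not detected.

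A further list of 32 long noncoding RNAs was looked for among the other probes by RefSeq name. For 23 of them there were 39 probes, of which 31 were detected, and 0 passed in any knockout by limma, with 3, 3 and 6 at an unadjusted p under 0.05 in Sox4cKO, Sox11cKO and dcKO, where 6.18%, 7.05% and 9.89% of all probes were under it. Meg3, an imprinted transcript, had log2 ratios of -1.44 and -1.74 in dcKO and -2.73 and 0.43 in Sox4cKO for A_51_P455997 (limma adjusted p in dcKO = 0.428). The same probe gave 0.45 and -1.12 in Sox11cKO. Its values followed the median of the dermal markers in sign on all 6 arrays, and the part of dermal cells was not tested. The other detected Meg3 probe, A_55_P2033407, changed less in dcKO, with -0.59 and -0.61 (limma adjusted p = 0.569).

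No noncoding probe passed in a single knockout. In Sox4cKO the lowest adjusted p was that of A_30_P01019266 at chr6:35201798-35217831, forward strand, with log2 ratios of -1.95 and -1.73 (limma adjusted p = 0.299). Its limma adjusted p depended on the fit: it was 0.000212 with 1 dcKO array left out (either of them), 0.00507 from the 2 Sox4cKO arrays alone, 0.0156 with a prior variance that followed intensity, and 0.0584 to 0.863 in the other alternatives. Knockout signal was not well above background on either array, and wild type was at least 3.21-fold higher. The second probe of the region, A_30_P01018280, gave -1.004 and -1.06. In dcKO the same 2 probes were lower on replicate 1 (-1.65 and -1.33) and not on replicate 2 (0.16 and 0.14). The levels in the 12 channels fell into 2 sets that did not follow the genotypes. A_30_P01019266 was at 6.84 to 7.002 in all wild-type channels of Sox4cKO and dcKO arrays and in the dcKO channel of replicate 2, and at 4.78 to 5.29 in the other 7, which included wild type and knockout of both Sox11cKO arrays. A_30_P01018280 had the same split, at 7.65 to 8.01 and 6.66 to 6.92. The wild-type samples of the Sox11cKO arrays were thus as low at this region as the Sox4cKO samples.

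Other probes near the top in Sox4cKO were those at chr15:77164450-77201325 given above and A_30_P01029761 (chr9:88437245-88465751, forward), with log2 ratios of 0.50 and 1.14 (limma adjusted p = 0.346). The remaining 6 had adjusted p-values of 0.666 to 0.731 and included 2 H19 probes. In Sox11cKO the 10 probes with the lowest adjusted p had values of 0.558 to 0.694. A_30_P01022310 (chr5:35975265-35982561, forward) was first, with -0.57 and -0.77 in Sox11cKO and -0.05 to 0.13 on the other 4 arrays. At chr1:69531191-69570566, reverse strand, 3 of these probes had log2 fold changes of -0.56 to -1.02, with -0.99 to -1.54 on replicate 2 and -0.14 to -0.50 on replicate 1. The wild-type channel of replicate 2 was apart there, at 6.94 to 7.53 (log2), while every other channel of these probes was at 6.15 or lower. At chr4:124127144-124334840, reverse strand, all 5 probes were above wild type on both Sox11cKO arrays, with log2 fold changes of 0.47 to 0.88, and none passed. For all 5, the wild-type channel of Sox11cKO replicate 2 was the lowest of the 12 channels. For A_30_P01019540 it was at 6.02 (log2), with every other channel between 6.97 and 7.54, and the knockout channel of that array at 7.37.

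Whether dcKO differed from the single knockouts was tested directly. Against Sox4cKO 5 noncoding probes passed (0.147% of all probes passed), against Sox11cKO 2 (0.163% of all probes), and against the sum of both single knockouts 1 (0.088% of all probes). A_30_P01031718 passed all 3 tests, with log2 differences of 3.49, 3.12 and 3.66 (limma adjusted p = 0.000342, 0.000591 and 0.00126). A_30_P01023847 differed by 1.96 from Sox4cKO and by 1.74 from Sox11cKO (limma adjusted p = 0.0208 and 0.0376), and its difference from the sum, 1.74, did not pass (limma adjusted p = 0.165). Against Sox4cKO the others were A_30_P01030782, A_30_P01031118 and A_30_P01031783, with differences of 1.63, 1.52 and 1.28 (limma adjusted p = 0.0406, 0.0405 and 0.0443). For A_30_P01031783 the Sox4cKO value was below wild type and the dcKO value above it. Without the dye coefficient 2 noncoding probes passed against Sox4cKO. For the other passing probes of dcKO a difference from the single knockouts was not shown.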

How the data were processed

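Images of 6 arrays on 1 slide, read in 1 scan, were extracted by the authors with Agilent Feature Extraction 11.0.1.1. Groups, replicates and dyes came from the labels. The authors' deposited series table holds log2 ratios of knockout over wild type, which per their methods were made in limma with normexp (offset 16) and loess. Recomputed ratios matched them at r of 0.9999 or more on each array. The deposited scanner files give the median intensity of each spot (62976 spots, 59305 not controls, 0 of these saturated) and the authors' log10 ratio of red over green from Feature Extraction. The number of arrays limits the precision. The paper describes the 2 replicates of each genotype as biological replicates. Nothing further says which embryos or litters the arrays came from, so p-values measure only the spread between these arrays.

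A linear model on the table's values of all 55681 probes was fitted in R 4.3.3 with limma 3.58.1, with 1 coefficient per genotype and 1 for the dye (residual degrees of freedom 2, prior 6.65). This dye term stood in for the ComBat step of the methods and is also the replicate block. Deviations of same-numbered arrays from their genotype means correlated at 0.26 to 0.33, and the pairing comes from the replicate numbers in the labels. All tests were two-sided. Channel levels are log2 values after loess and Aquantile normalization. The model was tested on simulated data.

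Probes named were those called in a knockout, up to 10 with the lowest adjusted p among probes well above background in the brighter group where fewer than 10 were called, the 10 brightest, all probes of a called probe's region and 3 on each side of the fold limit in dcKO. The other probes past adjusted p 0.05 in dcKO and the transcripts named by the array were added after their values were seen, and 1 of the 36 is counted but not described here. Members, marker lists (keratinocytes, dermal fibroblasts, muscle, blood vessels, immune cells, red blood cells, melanocytes) and the list of 32 long noncoding RNAs were chosen with earlier results of these data known. Marker genes were matched by RefSeq accession (GRCm38.p6) and represented by their brightest probe. Regions are on mm9, and lists by place were not made, because the files place no coding probe on that build. Alternatives were the background correction, normalization, filter, block, ComBat, arrays used, prior variance, detection limit, region grouping and call rule.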

Additional observations from a re-analysis of the deposited data

Results flagged for a closer look

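For 5 noncoding probes the effect in dcKO differed from that in another knockout by a test of the difference itself. Higher in dcKO than in Sox4cKO were A_30_P01031718 by 3.49, A_30_P01023847 by 1.96, A_30_P01030782 by 1.63, A_30_P01031118 by 1.52 and A_30_P01031783 by 1.28 on the log2 scale (limma adjusted p = 0.000342, 0.0208, 0.0406, 0.0405 and 0.0443). Higher in dcKO than in Sox11cKO were A_30_P01031718 by 3.12 and A_30_P01023847 by 1.74 (limma adjusted p = 0.000591 and 0.0376). Beyond the sum of both single knockouts was A_30_P01031718, by 3.66 (limma adjusted p = 0.00126). Groups of 2 arrays are too small for a test of single outlying arrays.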

How the results depend on the processing

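With 2 arrays a genotype and 2 residual degrees of freedom, counts of passing noncoding probes moved with nearly every choice. The signs of single probes seldom turned, but this says little about how firm they are. The choices of block, ComBat, own arrays, prior variance and arrays of another genotype alter a probe's p and leave its log2 fold change unchanged. Most named probes were also picked for a low p or a large change on the same arrays. Over the 65 named probes, 859 alternative values stayed on their side of the limit, 143 lost and 36 gained a pass, and 1 reversed, the NEAT1 probe A_30_P01021631 in dcKO, which was at -0.0154 to 0.497 when a dcKO array was left out (-0.0154 without dcKO replicate 1). None of the 36 probes passed in all 16 alternatives, and 23 passed in at least 12. The 5 called in dcKO became 3 with normexp offset 50, 3 without background subtraction, 3 among probes well above background, 3 without the replicate block (the dye term), 3 from the 2 dcKO arrays alone, 0 from Feature Extraction log ratios, 36 by adjusted p alone and 3 to 11 when 1 array was left out (3 without either Sox11cKO array, 11 without dcKO replicate 2). The 0 called in Sox4cKO became 1 from its own 2 arrays, 1 with a prior variance that followed intensity, and 0 to 1 when 1 array was left out. In both of the former and without either dcKO array the called probe was A_30_P01019266 (limma adjusted p = 0.000212 to 0.0156, beside 0.0584 to 0.863 in its other alternatives). The 29 higher and 7 lower by adjusted p became 66 and 34 with offset 50, 57 and 30 without background subtraction, 0 and 0 from Feature Extraction, 26 and 16 with median centring, 31 and 16 among probes well above background, 15 and 4 without the replicate block, 391 and 331 after ComBat on the dye orientation, 56 and 32 with the intensity-following prior, and 7 to 34 and 1 to 11 when 1 array was left out (7 and 1 without dcKO replicate 1, 12 and 7 without dcKO replicate 2). After ComBat the dye was no longer counted among the fitted terms. The 5 that differed between dcKO and Sox4cKO became 21, 19, 0, 3, 2, 58 and 18 with offset 50, without background subtraction, from Feature Extraction, with median centring, without the replicate block, after ComBat and with the intensity-following prior, and 1 to 6 when 1 array was left out (1 without Sox4cKO replicate 1). The 2 that differed between dcKO and Sox11cKO became 18, 17, 0, 4, 142 and 22 in the same order without the block, 1 among probes well above background, and 1 to 10 when 1 array was left out (10 without dcKO replicate 2). The 1 beyond the sum became 5, 4, 0, 9 and 5 with offset 50, without background subtraction, from Feature Extraction, after ComBat and with the intensity-following prior, and 1 to 5 when 1 array was left out. The cause of these shifts was not tested. With signal over 3 SD of the negative controls as the limit, the mean share of noncoding probes above background was 36.2% in place of 19.4%. Probes of overlapping stretches on any strand correlated at 0.40 in dcKO, in place of 0.55 for 1 region and strand. Signal over background limits what could be seen, since 11333 noncoding probes were well above background in no channel. A comparison of noncoding probes by place was not run.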
